A study of Mus musculus with 9 samples.

Results

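Small nucleolar RNAs (snoRNAs) were examined in mouse embryonic stem (ES) cells that lack Dgcr8 or Dicer. Members were all transcript clusters (the array's probe groups for 1 transcript) whose first annotated symbol begins with Snora, the H/ACA class, or Snord, the C/D class. The table held 92 such clusters among 23002 counted transcripts, 26 H/ACA and 66 C/D. Clusters that carried identical values on every array were counted once, which left 72 snoRNA clusters, 25 H/ACA and 47 C/D. Of these, 54 carried a single symbol, and the others also named a host gene or a near copy, so that their signal cannot be assigned to 1 gene. RNA was hybridised to 9 Affymetrix mouse gene arrays, 3 for each of Dgcr8 KO, Dicer KO and WT ES cells. In Dgcr8 KO cells the Dgcr8 gene lacks exon 3, which leaves a premature stop codon. In Dicer KO cells the Dicer gene, annotated here as Dicer1, is inactivated. The WT cells were the v6.5 line, and the sources used here do not say how many clones of each mutant were used or how long each was cultured.

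snoRNAs are short, stable nucleolar RNAs that direct protein partners to ribosomal RNA and some spliceosomal RNAs. H/ACA snoRNAs guide the conversion of uridine to pseudouridine, and C/D snoRNAs guide methylation of the ribose. A few in each class, among them U17 (Snora73a and Snora73b), U14 (the Snord14 genes), U22 (Snord22) and U8 (Snord118), act in cleavage of the ribosomal precursor. Most vertebrate snoRNAs have no promoter of their own: they lie in introns of a host gene and are released after splicing, when the intron lariat is opened and its ends are trimmed back to the protein-bound core. Dgcr8 with Drosha cuts primary miRNA hairpins, Dicer cuts the resulting precursors to mature miRNAs, and some snoRNAs contain miRNA hairpins. The 20 H/ACA genes behind the members with 1 position were 61 to 205 bases long (median 125), and the 31 C/D genes 45 to 148 bases (median 68). Spans were taken from RefSeq on GRCm38.p6, and strand was not checked when a host was assigned. A host gene held all 20 H/ACA genes, and 8 of those hosts encode ribosomal proteins. Of the C/D genes, 30 had a host and 13 lay in a ribosomal protein gene; Snord118 had none.

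The sequence marks of both classes are shown for the snoRNAs whose RefSeq span overlaps an annotated miRNA hairpin, since these carry the sequence that the reference tables hold. Snord33 lies in Rpl13a at chr7:45126864-45126945 (GRCm38.p6, minus strand), and its 5′ end holds the C box UGAUGA, in capitals. The mature miR-5121 lies wholly inside that end; its capitals mark the seed, bases 2 to 8. Snora36b (chr1:185242926-185243038, plus strand) ends in an ACA box placed 3 bases before the 3′ end, in capitals, and miR-664-3p lies in the same stretch.
Snord33, first 28 bases: agcuugUGAUGAgacaucucccacucau
miR-5121: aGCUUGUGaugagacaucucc
Snora36b, last 30 bases: uucuauucauuuacuccccagccuACAcau
miR-664-3p: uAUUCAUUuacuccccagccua
Only 4 of 69 snoRNA genes in the table overlapped a miRNA in this way, and Snora36b is listed after its miRNA, so that its cluster is not among the 72.

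Several non-coding hosts of these snoRNAs start with a C followed by a run of pyrimidines, the start that marks 5′ terminal oligopyrimidine (TOP) transcripts such as ribosomal protein mRNAs. The 30 bases around 4 such starts are shown as examples: Gas5 holds Snord47, Gm36220 holds Snord104, and the 2 others hold the snoRNAs of the clusters annotated to both Snora43 and Snhg7 and to both Snora24 and Snhg8. Each window has 15 bases before the start and 15 from it, on the gene's strand, and capitals mark the pyrimidine run that opens the transcript.
Gas5, chr1:161035151-161035180, plus strand: agccgccatctcagcCTTTCggagctgtgc
Gm36220, chr11:106500900-106500929, plus strand: cacgtccattccggcCTCTTatcgacgggg
Snhg7, chr2:26640230-26640259, minus strand: gtggagatgctcggcCTCTCggcagccatg
Snhg8, chr3:123508322-123508351, minus strand: gcaccgttcagaagtCTCTTTggctgcgat
A C at the start followed by 4 bases that are each C or T was found in 5 of 11 non-coding hosts with a start sequence (45.5%) and in 3 of 26 protein-coding hosts (11.5%), beside 3.01% of 27025 genes. Gas5 and 1110038B12Rik each have a further annotated start without it. Among the ribosomal protein hosts only Rplp2 had it, and Rpl27a did not, although its annotated start opens a run of 15 pyrimidines. The rule thus missed ribosomal protein transcripts, so the shares do not rank non-coding against protein-coding hosts. These matches describe the annotation and say nothing of the starts used in these cells.

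Before the comparisons, the arrays were set beside each other, because the members' replicates were not equally placed. Among the 3 WT arrays, replicate 1 gave the lowest value for 64 of 72 snoRNAs, while it was the lowest WT array for 45.3% of all transcripts. Dgcr8 KO replicate 2 gave the highest Dgcr8 KO value for 59 of 72, beside 36.2% of all transcripts. The 2 arrays lay -0.12 (WT replicate 1) and 0.11 (Dgcr8 KO replicate 2) from their genotype means in the median snoRNA, on the log2 scale. A low WT array and a high Dgcr8 KO array both raise Dgcr8 KO relative to WT, and the first also raises Dicer KO, so counts are given with these arrays and without them. The median SD of a snoRNA was 0.116 in Dgcr8 KO, 0.0743 in Dicer KO and 0.128 in WT, against 0.0781, 0.0597 and 0.0913 for all transcripts. The labels were borne out by the targeted genes: Dgcr8 was at 8.74, 8.96 and 8.86 (log2 level) in Dgcr8 KO and at 9.76, 9.81 and 9.82 in WT, and Dicer1 was at 8.33, 8.43 and 8.32 in Dicer KO and at 10.18, 10.18 and 10.24 in WT.

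**Figure D1:**
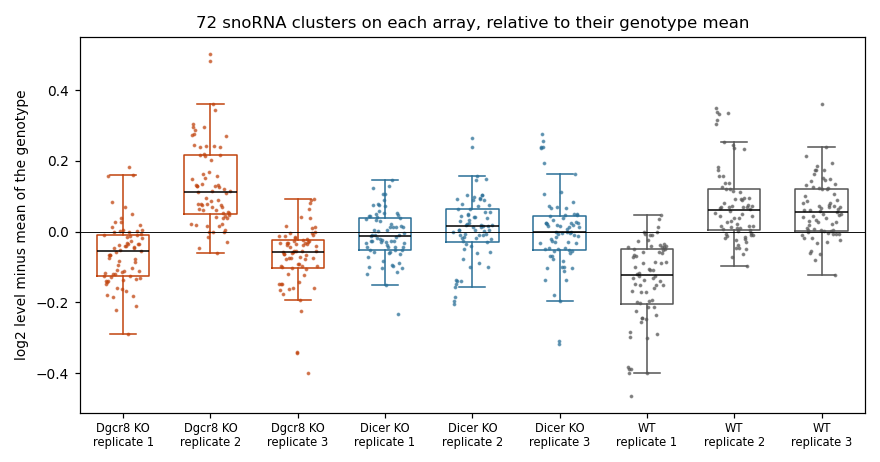
Deviation of each snoRNA's log2 level from the mean of its genotype (vertical axis), by array; each dot is 1 of the 72 snoRNA clusters, and boxes give median and quartiles. WT replicate 1 is shifted down (median -0.12) and Dgcr8 KO replicate 2 up (median 0.11), while the Dicer KO arrays lie close to 0.

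The first question was how many snoRNAs differed between each mutant and WT. Against WT, snoRNAs were mostly lower in Dicer KO cells and mostly not called in Dgcr8 KO cells. A snoRNA was called where limma's Benjamini-Hochberg adjusted p, over all 23002 transcripts, was under 0.05. In Dicer KO cells 39 of 72 snoRNAs fell and 1 rose, with a median log2 ratio of -0.29; over all transcripts 19.1% fell and 17.8% rose (36.8% called either way), with a median of -0.06. In Dgcr8 KO cells 11 snoRNAs fell and 8 rose (median -0.10), beside 17.3% and 15.7% of all transcripts. These are bulk RNA samples, in which fewer cells of a type and less RNA per cell cannot be told apart. Nor can an array of this kind tell a mature snoRNA from an intron or lariat that still holds it.

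Both classes shared the fall in Dicer KO cells. Of 25 H/ACA snoRNAs 15 fell and 0 rose (median -0.29); by limma's unadjusted p and by the SAM-type test 0 rose as well. Of 47 C/D snoRNAs 24 fell and 1 rose (median -0.29). In Dgcr8 KO cells 6 H/ACA snoRNAs fell and 1 rose (median -0.12), while 5 C/D snoRNAs fell and 7 rose (median -0.07). The difference between classes was not tested. Without overlap, all 3 Dicer KO arrays lay below all 3 WT arrays for 51 of 72 snoRNAs, where 26.7% of all transcripts did so, and all 3 Dgcr8 KO arrays lay below WT for 16, where 21.6% did so.

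Set directly against Dicer KO, Dgcr8 KO cells had 35 snoRNAs higher and 0 lower, with a median log2 ratio of 0.21 beside 0.03 for all transcripts, of which 11.2% were higher and 13.4% lower. By limma's unadjusted p under 0.05 there were 42 higher and 1 lower, and by the SAM-type test 41 and 1, the 1 lower being Snora69. The 35 were 11 of 25 H/ACA and 24 of 47 C/D snoRNAs. A total of 30 snoRNAs were lower in Dicer KO than in Dgcr8 KO and WT alike, 10 H/ACA and 20 C/D, beside 5.66% of all transcripts, and 0 were higher, beside 8.19%; limma's unadjusted p and the SAM-type test also gave 0 higher. In Dgcr8 KO 6 stood above both Dicer KO and WT, beside 4.75% of all transcripts, and 0 stood below both, beside 5.15%; limma's unadjusted p and the SAM-type test each gave 1 below.

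These counts moved with the arrays named above, and the alternatives without them were chosen after the data were seen. Without WT replicate 1 and Dgcr8 KO replicate 2, 29 snoRNAs fell and 4 rose in Dgcr8 KO relative to WT; 11 of the 11 falls and 4 of the 8 rises remained. In Dicer KO cells 52 fell and 1 rose, with 38 of the 39 falls remaining. Between the mutants 33 were higher in Dgcr8 KO, 32 of them among the 35, and 6 were lower: Snord47, both Snord58b clusters, Snord73b, Snora69 and the cluster annotated to both Snora24 and Snhg8. The median log2 ratio was then -0.20 in Dgcr8 KO and -0.39 in Dicer KO relative to WT. Leaving out single arrays gave 28 to 48 falls in Dicer KO (28 without Dicer KO replicate 2, WT replicate 2 or WT replicate 3, 29 without Dicer KO replicate 1), 8 to 19 falls in Dgcr8 KO (19 without WT replicate 1, 18 without Dgcr8 KO replicate 2), 5 to 8 rises there (5 without Dgcr8 KO replicate 2 or 3) and 23 to 36 snoRNAs higher in Dgcr8 KO than in Dicer KO (23 without Dgcr8 KO replicate 2 or Dicer KO replicate 2, 24 without Dicer KO replicate 1). The 30 snoRNAs lowest in Dicer KO by call were 31 without the 2 arrays and 17 to 32 without single arrays (17 without Dicer KO replicate 2, 18 without Dicer KO replicate 1).

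**Figure D2:**
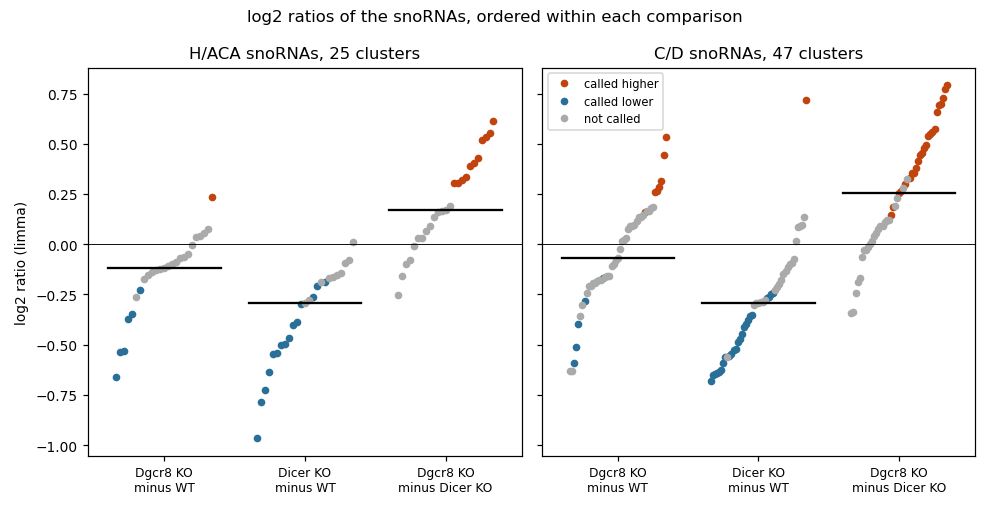
Log2 ratio (vertical axis) of each snoRNA in each contrast, ordered within the contrast and class, with the 25 H/ACA and 47 C/D snoRNAs apart; colour marks the call and the black line the class median. Called values in Dicer KO minus WT lie below 0 apart from 1 C/D snoRNA, and called values in Dgcr8 KO minus Dicer KO lie above 0 in both classes.

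Among H/ACA snoRNAs the widest fall was in Snora74a, which lies in Snhg4. Its log2 level was 8.34, 8.40 and 8.31 in Dgcr8 KO, 8.0, 8.10 and 8.03 in Dicer KO, against 8.96, 9.08 and 8.98 in WT. The 3 genotypes did not overlap, with Dicer KO lowest and WT highest. The log2 ratio was -0.66 in Dgcr8 KO (SE 0.0526, adjusted p = 1.1e-05) and -0.96 in Dicer KO (adjusted p = 7.23e-07), which is 0.512-fold of WT, and Dgcr8 KO stood 0.31 above Dicer KO (adjusted p = 0.0025). Snora16a and Snora44 both lie in Snhg12, another non-coding host. Snora16a was at 9.59, 9.35 and 9.29 in Dgcr8 KO, at 8.82, 8.71 and 8.86 in Dicer KO, against 9.48, 9.70 and 9.58 in WT. Only the Dicer KO arrays stood apart, by -0.79 from WT (SE 0.0893, adjusted p = 8.93e-05) and with Dgcr8 KO 0.61 above Dicer KO (adjusted p = 0.000966). Snora44 fell less, by 0.39 in Dicer KO (adjusted p = 0.000717), and was called lower by 0.23 in Dgcr8 KO (adjusted p = 0.0165), a call lost without WT replicate 2, where the ratio was -0.18.

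Snora75 and Snord82 are an H/ACA and a C/D snoRNA from introns of the same gene, Ncl, which encodes nucleolin, an abundant nucleolar protein. Snora75 (chr1:86351170-86351285) was at 8.82, 8.86 and 8.76 in Dgcr8 KO, 8.29, 8.28 and 8.32 in Dicer KO, against 8.84, 8.95 and 9.0 in WT. Snord82 (chr1:86356260-86356327) was at 7.57, 7.82 and 7.36 in Dgcr8 KO, 7.08, 7.28 and 7.05 in Dicer KO, against 7.67, 7.74 and 7.92 in WT. In both, the Dicer KO arrays lay below every other array. Relative to WT they fell in Dicer KO by 0.63 (Snora75, SE 0.0541, adjusted p = 1.36e-05) and 0.64 (Snord82, SE 0.12, adjusted p = 0.00217). In Dgcr8 KO the ratios to WT were -0.12 (adjusted p = 0.14) and -0.19 (adjusted p = 0.276). Dgcr8 KO exceeded Dicer KO by 0.52 for Snora75 (adjusted p = 0.00013) and by 0.45 for Snord82 (adjusted p = 0.0237). That last call was lost without Dgcr8 KO replicate 1 or 2 or Dicer KO replicate 1 or 3, where the ratio was 0.33 to 0.45.

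Snora3, in the ribosomal protein gene Rpl27a (chr7:109520132-109520251), was read by 2 clusters with nearly the same values. The first was at 9.55, 9.67 and 9.56 in Dgcr8 KO, 9.07, 9.05 and 9.05 in Dicer KO, against 9.56, 9.54 and 9.58 in WT. Dgcr8 KO and WT overlapped, and Dicer KO was 0.50 below WT (SE 0.0471, adjusted p = 2.59e-05), with Dgcr8 KO 0.53 above Dicer KO (adjusted p = 4.66e-05). The second cluster gave -0.50 for Dicer KO minus WT, with Dgcr8 KO 0.55 above Dicer KO. Snora52, in Rplp2, was at 10.96, 11.04 and 10.98 in Dgcr8 KO, 10.71, 10.65 and 10.67 in Dicer KO, against 11.03, 11.10 and 11.11 in WT. It fell by 0.40 in Dicer KO (SE 0.0464, adjusted p = 9.68e-05), and its ratio in Dgcr8 KO was -0.09 (adjusted p = 0.206). Both Snora21 clusters (Rpl23) fell in Dicer KO, by 0.47 and 0.54 (adjusted p = 0.00147 and 0.000596).

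Other H/ACA snoRNAs lower in Dicer KO were Snora23 of Ipo7 (-0.30), Snora62 of Rpsa (-0.26), Snora7a of Rpl32 (-0.21) and Snora31 of Tpt1 (-0.19), with adjusted p of 0.00698 to 0.0416. The Snora62 call was lost on leaving out any of 4 arrays (Dicer KO replicate 1 or 2, WT replicate 2 or 3), where the ratio was -0.26 to -0.21. Snora73a and Snora73b, the U17 RNAs of Snhg3, were not called. Snora73a was at 10.65, 10.60 and 10.64 in Dgcr8 KO, 10.55, 10.61 and 10.65 in Dicer KO, against 10.65, 10.69 and 10.74 in WT. Its ratios to WT were -0.06 in Dgcr8 KO (adjusted p = 0.374) and -0.09 in Dicer KO (adjusted p = 0.16). A shift of this size was not detectable with 3 arrays per genotype.

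Snora41 and Snora69 were low in Dgcr8 KO as well. Snora41, in the translation factor gene Eef1b2, was at 6.57, 6.91 and 6.87 in Dgcr8 KO, 6.36, 6.75 and 6.68 in Dicer KO, against 7.28, 7.22 and 7.46 in WT. All 6 mutant arrays lay below all WT arrays, by 0.54 in the Dgcr8 KO mean (SE 0.121, adjusted p = 0.00693) and 0.72 in the Dicer KO mean (adjusted p = 0.0011), and the mutants differed by 0.19 (adjusted p = 0.299). Snora69, in Rpl39, was at 7.77, 8.15 and 7.72 in Dgcr8 KO, 8.15, 8.15 and 8.10 in Dicer KO, against 8.26, 8.47 and 8.49 in WT. It fell by 0.53 in Dgcr8 KO (SE 0.111, adjusted p = 0.00453), while in Dicer KO its ratio was -0.28 (adjusted p = 0.0825). Dgcr8 KO minus Dicer KO was -0.26 (adjusted p = 0.131), and -0.39 without Dgcr8 KO replicate 2, where it was called. Snora20, in Tcp1, fell by 0.37 in Dgcr8 KO (adjusted p = 0.0297), a call lost without Dgcr8 KO replicate 1 or 3 or WT replicate 2 or 3, where the ratio was -0.35 to -0.31.

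**Figure D3:**
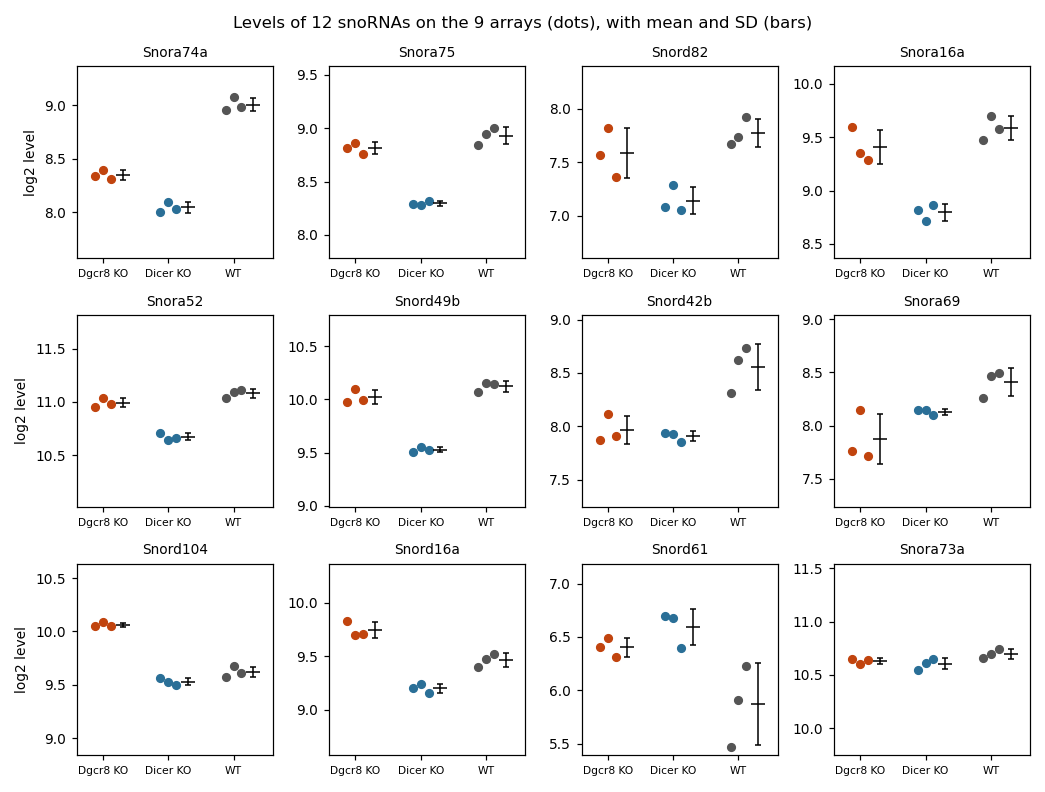
Log2 level (vertical axis, 1.8 log2 units in every panel) of 12 snoRNAs on each array in Dgcr8 KO, Dicer KO and WT cells; dots are arrays, and bars give mean ± SD (n = 3). In the panels of Snora74a, Snora75, Snora16a and Snord49b the Dicer KO arrays lie below all others, in that of Snord104 the Dgcr8 KO arrays lie above all others, and in that of Snora73a the genotypes overlap.

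Among C/D snoRNAs with 1 symbol, Snord42b, Snord82 and Snord49b had the widest falls in Dicer KO. Snord49a and Snord49b share the non-coding host 2410006H16Rik. Snord49b was at 9.97, 10.10 and 10.00 in Dgcr8 KO, 9.51, 9.55 and 9.53 in Dicer KO, against 10.06, 10.15 and 10.15 in WT. Dicer KO stood clear of both, 0.59 below WT (SE 0.0514, adjusted p = 1.52e-05), and Dgcr8 KO was 0.50 above it (adjusted p = 0.000124). Snord49a fell by 0.56 in Dicer KO (adjusted p = 0.000131), with a ratio of -0.18 in Dgcr8 KO (adjusted p = 0.0745). Snord53, in the ribosome biogenesis gene Wdr43, fell in both mutants, by 0.28 in Dgcr8 KO (adjusted p = 0.00371) and 0.55 in Dicer KO (adjusted p = 5.06e-05). Snord52 (-0.45), Snord15a (-0.52) and Snord15b (-0.38), the Snord15 pair lying in Rps3, and Snord85 (-0.41) were lower in Dicer KO as well, with adjusted p of 0.000929 to 0.00733.

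Snord42a and Snord42b, both in the ribosomal protein gene Rpl23a, fell to a like degree in the 2 mutants. Snord42b was at 7.87, 8.12 and 7.91 in Dgcr8 KO, 7.94, 7.93 and 7.86 in Dicer KO, against 8.31, 8.62 and 8.73 in WT. The log2 ratio was -0.59 in Dgcr8 KO (SE 0.106, adjusted p = 0.0019) and -0.65 in Dicer KO (adjusted p = 0.000979). Snord42a gave -0.51 and -0.49 (adjusted p = 0.00714 and 0.00896). Snord96a and Snord95 share the host Rack1, whose product binds the small ribosomal subunit. Snord96a fell by 0.40 in Dgcr8 KO and by 0.47 in Dicer KO (adjusted p = 0.00151 and 0.000446). Snord95 fell by 0.35 in Dicer KO (adjusted p = 0.000401) and by 0.17 in Dgcr8 KO (adjusted p = 0.0302), where the call was lost without Dgcr8 KO replicate 1 or 3 or WT replicate 2 or 3 (ratio -0.18 to -0.15). Over all 72 snoRNAs, 8 fell in both mutants, 5 of them C/D and 3 H/ACA. The share of all transcripts that fell in both was not computed, so this count cannot be read as particular to snoRNAs.

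The 8 snoRNAs called higher in Dgcr8 KO than in WT were led in size by Snord61 and in precision by Snord104. Snord104, in the non-coding gene Gm36220 (chr11:106500991-106501063), was at 10.05, 10.09 and 10.05 in Dgcr8 KO, 9.56, 9.52 and 9.49 in Dicer KO, against 9.58, 9.67 and 9.61 in WT. Dgcr8 KO stood above every other array, by 0.45 over WT (SE 0.0456, adjusted p = 5.47e-05) and 0.54 over Dicer KO (adjusted p = 3.77e-05), while Dicer KO minus WT was -0.09 (adjusted p = 0.152). Both calls held without any single array, and Snord104 was the 1 snoRNA that the SAM-type test also placed above both other genotypes. Snord16a, in Rpl4 (chr9:64175432-64175522), was at 9.83, 9.70 and 9.71 in Dgcr8 KO, 9.20, 9.24 and 9.15 in Dicer KO, against 9.40, 9.47 and 9.52 in WT. The 3 genotypes were apart, with Dgcr8 KO 0.28 above WT (SE 0.0566, adjusted p = 0.00343), Dicer KO below WT (fold 0.832, adjusted p = 0.00471), and Dgcr8 KO 0.55 above Dicer KO (adjusted p = 0.000119).

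The other 4 snoRNAs placed above both genotypes in Dgcr8 KO were less steady. The cluster annotated to both Snord32a and Rpl13a was at 10.26, 10.39 and 10.27 in Dgcr8 KO, 9.78, 9.67 and 9.79 in Dicer KO, against 9.87, 10.13 and 9.97 in WT, with ratios of 0.32 for Dgcr8 KO minus WT (adjusted p = 0.00785), -0.24 for Dicer KO minus WT (adjusted p = 0.0266) and 0.56 for Dgcr8 KO minus Dicer KO (adjusted p = 0.000486). Its Dicer KO call was lost without Dicer KO replicate 1 or 2 or WT replicate 2 or 3 (ratio -0.26 to -0.17). Snord35b was at 8.54, 8.66 and 8.60 in Dgcr8 KO, 8.20, 8.11 and 8.05 in Dicer KO, against 8.18, 8.32 and 8.50 in WT. It rose by 0.27 over WT (adjusted p = 0.0301), a call lost without Dgcr8 KO replicate 2 or 3 or WT replicate 1 or 2 (ratio 0.19 to 0.27), and exceeded Dicer KO by 0.48 (adjusted p = 0.00221). Snora30, in Srcap, which encodes a chromatin remodeller, rose by 0.24 (adjusted p = 0.0183) and lost that call without Dgcr8 KO replicate 2 or 3 or WT replicate 2 or 3 (0.20 to 0.23). Snord8, whose human counterpart guides methylation of U6 spliceosomal RNA, rose by 0.16 (adjusted p = 0.0199), which was lost without Dgcr8 KO replicate 3 or WT replicate 3 (0.14 and 0.16); its call against Dicer KO (0.15, adjusted p = 0.0421) was lost on leaving out any 1 array but WT replicate 1 (0.13 to 0.17). The count of 6 was 3 without the WT replicate 1 and Dgcr8 KO replicate 2 arrays, and 3 to 5 without single arrays (3 without Dgcr8 KO replicate 2 or WT replicate 2).

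Snord14e and Snord61 rose in Dgcr8 KO without standing above Dicer KO. Snord14e, a U14 gene in the chaperone gene Hspa8, was at 10.72, 10.87 and 10.78 in Dgcr8 KO, 10.66, 10.66 and 10.69 in Dicer KO, against 10.48, 10.55 and 10.56 in WT. Its ratios to WT were 0.26 in Dgcr8 KO (SE 0.0509, adjusted p = 0.00327) and 0.14 in Dicer KO (adjusted p = 0.0653). Snord61, in the X-linked gene Rbmx, was the 1 snoRNA called higher in Dicer KO. It was at 6.41, 6.49 and 6.31 in Dgcr8 KO, 6.70, 6.68 and 6.39 in Dicer KO, against 5.47, 5.91 and 6.23 in WT. These levels lay below the median of all transcripts on every array (6.87 to 6.93). WT was lowest and spread widest, and the ratios were 0.53 in Dgcr8 KO (SE 0.168, adjusted p = 0.0353) and 0.72 in Dicer KO (adjusted p = 0.00763). The Dgcr8 KO call was lost without any of Dgcr8 KO replicates 1 to 3, Dicer KO replicate 2 or WT replicate 1 or 2 (ratio 0.33 to 0.58).

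The Snord116 RNAs are tandem C/D copies from the imprinted Snrpn region, expressed from the paternal chromosome through the long host transcript Snhg14, and no rRNA target is known for them. The array reads them with 24 clusters, all annotated to Snord116l2, Snord116l1 and Gm26504 and placed at chr7:59876935-59877024; 7 had values of their own. All 7 carry the same gene annotation, so they are no independent measurements of different RNAs. One of the 7 was at 5.78, 6.17 and 5.82 in Dgcr8 KO, 5.18, 4.98 and 5.24 in Dicer KO, against 5.37, 5.93 and 5.97 in WT, so that the Dicer KO arrays lay below all others. Its ratio was 0.17 in Dgcr8 KO (adjusted p = 0.526) and -0.63 in Dicer KO (SE 0.165, adjusted p = 0.0145), and Dgcr8 KO was 0.79 above Dicer KO (adjusted p = 0.0071). The levels of this cluster lay below the median of all transcripts on every array (6.87 to 6.93), and no detection call was available. Over the 7, Dicer KO minus WT was -0.68 to -0.53, with 6 called lower, and Dgcr8 KO minus Dicer KO was 0.57 to 0.79, with 7 called higher. Of Dgcr8 KO minus WT (0.01 to 0.17), 0 were called by limma's adjusted p, 0 at an unadjusted p under 0.05 and 0 by the SAM-type test. The SAM-type test could hardly call ratios of this size, because the constant it adds to the spread was 0.741 in this contrast. The calls against WT were fragile: 0 were made without WT replicate 2, WT replicate 3 or Dicer KO replicate 2 or after cyclic loess, and 1 without Dicer KO replicate 1, while the calls against Dgcr8 KO numbered 2 without Dgcr8 KO replicate 2, Dicer KO replicate 1 or Dicer KO replicate 2. Without WT replicate 1 and Dgcr8 KO replicate 2, 7 were called lower in Dicer KO than in WT and 6 higher in Dgcr8 KO than in Dicer KO. The cluster annotated to Snurf and Snrpn, protein-coding genes of the same imprinted region, was at 9.76, 9.77 and 9.75 in Dgcr8 KO, 9.41, 9.46 and 9.39 in Dicer KO, against 10.64, 10.67 and 10.68 in WT. It was thus lower in both mutants, by 0.90 and 1.24, while Snord116 clusters were called against WT only in Dicer KO; that difference in pattern was not tested. Excluding Snord116, 18 of 40 C/D snoRNAs fell in Dicer KO and 17 were higher in Dgcr8 KO than in Dicer KO.

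Host genes were set beside their snoRNAs next, which asks whether a snoRNA and the mRNA spliced from the same transcript moved alike. For 35 snoRNA clusters, 27 hosts had a cluster of their own, 25 of them protein-coding. Of a gene with several clusters, the one with the highest mean level was used, which need not read the copy that holds the snoRNA. In Dicer KO relative to WT, other clusters of Rps13 (-0.17, adjusted p = 0.0266) and Gas5 (0.42, adjusted p = 5.05e-05) were called where those used were not. Their snoRNAs, Snord14a and Snord47, were not called. In Dicer KO relative to WT, 17 of the 35 snoRNAs fell, while the host fell in 4 of the 17, was not called in 12 and rose in 1. Of those 4 falls, 2 were that of Rps3 (-0.18, beside Snord15a and Snord15b), whose call was lost without Dicer KO replicate 1 or 3 or WT replicate 3 (-0.18 to -0.14). The median log2 ratio over the 35 pairs was -0.28 for the snoRNAs and -0.05 for the hosts. The host of Snora75 and Snord82, Ncl, had a ratio of -0.12 (adjusted p = 0.198), Rpl27a (Snora3) 0.06, Rplp2 (Snora52) -0.12 and Rpl23a (Snord42a and Snord42b) -0.05, none of them called. Ipo7, an import receptor, rose by 0.33 (adjusted p = 0.000937), where its Snora23 fell by 0.30. Wdr43 fell by 0.42 (adjusted p = 5.66e-05) together with Snord53. The reverse also occurred: Rps3a1 fell by 0.77 and Kansl2 by 0.70, while Snord73a (-0.23), Snord73b (-0.11) and Snora2b (-0.16) were not called. The single Rps3a1 cluster spread widely in Dicer KO (11.23, 11.52 and 10.94, SD 0.291). Whether it reads the gene copy that holds Snord73a and Snord73b was not checked.

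As a value per array, the snoRNA minus its host was compared between genotypes with an exact two-sided permutation test, whose smallest p with 3 against 3 arrays is 0.1, so no pair could pass 0.05. In Dicer KO relative to WT the snoRNA's ratio was below its host's in 24 of 35 pairs, with a median difference of -0.25, and 28 pairs reached the smallest p in either direction. The snoRNA lay farthest above its host in the pairs of Snord73b (0.65) and Snord73a (0.54) with Rps3a1, Snord61 with Rbmx (0.54) and Snora2b with Kansl2 (0.54). The widest differences below the host were -0.63 for Snora23 and Ipo7, -0.60 for Snord42b and Rpl23a, -0.56 and -0.55 for the 2 Snora3 clusters and Rpl27a, and -0.52 and -0.51 for Snord82 and Snora75 with Ncl, with -0.51 also for Snora41 and Eef1b2. Between the mutants, 13 of the 35 snoRNAs were higher in Dgcr8 KO than in Dicer KO; the host was higher too in 2 of these (Wdr43 and Srcap) and not called in 11. The Wdr43 call was lost on leaving out Dgcr8 KO replicate 1 or 2 or any 1 Dicer KO array (0.15 to 0.17), and the Srcap call on leaving out any 1 array but Dgcr8 KO replicate 3 or WT replicate 1 (0.12 to 0.16). In Dgcr8 KO relative to WT, 4 of the 35 snoRNAs rose and 5 fell, and the median difference from the host was -0.02.

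**Figure D4:**
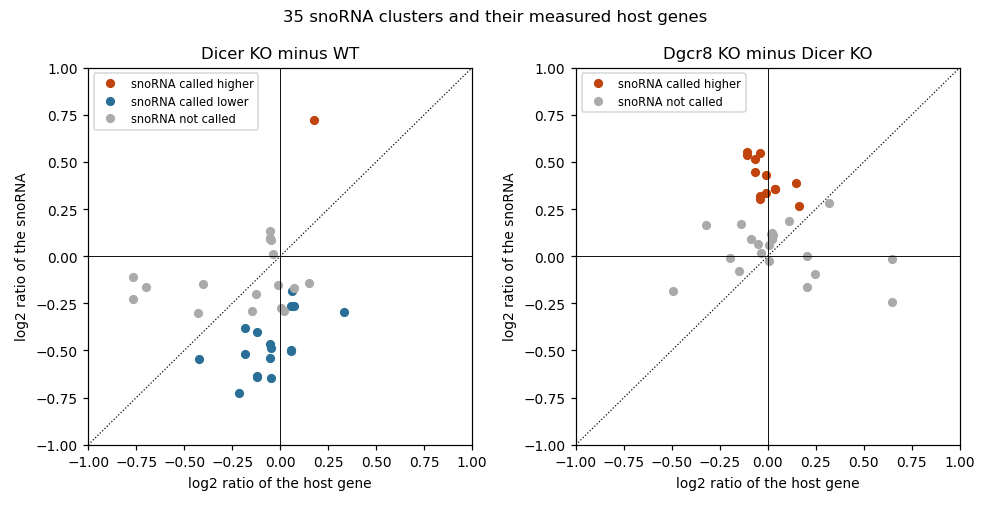
Log2 ratio of each snoRNA (vertical axis) against that of its host gene (horizontal axis) for 35 pairs, in Dicer KO minus WT (left) and Dgcr8 KO minus Dicer KO (right); the dotted line marks equal ratios. In Dicer KO minus WT, 24 of the 35 points lie below the dotted line.

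snoRNAs cut from the same host mostly moved together in Dicer KO. Of 11 hosts with at least 2 measured snoRNAs, 7 had all of them called lower, 4 had none called and 0 had some called and others not, and the median range within a host was 0.12. The 4 Rpl13a snoRNAs had ratios of -0.40 to -0.24, all called lower, and all 4 were higher in Dgcr8 KO than in Dicer KO by 0.33 to 0.56. Among them, Snord33, whose 5′ end holds miR-5121, was at 10.43, 10.50 and 10.35 in Dgcr8 KO, 10.06, 9.99 and 9.99 in Dicer KO, against 10.26, 10.27 and 10.33 in WT; it fell by 0.27 in Dicer KO (adjusted p = 0.00313), with 0.14 in Dgcr8 KO (adjusted p = 0.067). Its ratios lay within the range of the other Rpl13a snoRNAs, some of whose clusters also name Rpl13a. Whether the miRNA has a part in the level of Snord33 was not tested. The Snhg3 snoRNAs (-0.09 to -0.08) and the Hspa8 snoRNAs (0.09 to 0.14) had none called. In Dgcr8 KO relative to WT, 2 of the 11 hosts had all snoRNAs called one way, 6 had none called and 3 had some called.

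The members were also described by host type, length and signal level. Host type was counted without the 7 Snord116 clusters, whose host transcript Snhg14 is non-coding and of which 6 fell in Dicer KO. Of the other snoRNAs, 25 of 47 with a protein-coding host fell in Dicer KO and 8 of 17 with a non-coding host. The medians of these were -0.28 and -0.29. The counts that follow include Snord116. Of 28 snoRNAs in ribosomal protein genes 16 fell (median -0.28), beside 23 of the 44 others (median -0.30). Of the 36 brighter members 21 fell and of the 36 dimmer 18, with medians of -0.30 and -0.29. The median length of the H/ACA snoRNAs was 128 bases for those that fell and 122 for those not called, and of the C/D snoRNAs 81.5 and 76. Between the mutants the parts lay further apart: 21 of the 36 brighter members were higher in Dgcr8 KO than in Dicer KO (median 0.31) and 14 of the 36 dimmer (median 0.13), and the C/D snoRNAs called there had a median length of 88 bases, beside 71 for those not called. These are counts, and no difference between such groups was tested.

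Proteins that bind snoRNAs were measured on the same arrays, and many of their mRNAs fell in the mutants. Of the 4 H/ACA core genes, Dgcr8 KO cells had 4 called lower and Dicer KO cells 3. Of the 4 C/D core genes, 2 fell in each mutant. Over all transcripts, 17.3% fell in Dgcr8 KO and 19.1% in Dicer KO. Nop10 fell by 0.77 in Dgcr8 KO cells and 0.59 in Dicer KO cells, and Nhp2 by 0.67 and 0.58 (adjusted p at most 8.96e-05). Gar1 fell by 0.31 in both (adjusted p = 0.00141 and 0.00134). Dkc1, the pseudouridine synthase, fell by 0.19 in Dgcr8 KO (adjusted p = 0.0117), with -0.04 in Dicer KO (adjusted p = 0.515). Of the C/D core, Fbl, the methyltransferase, fell by 0.21 and 0.31 (adjusted p = 0.00422 and 0.000313), while a second, dimmer Fbl cluster was not called (-0.13 and -0.15, adjusted p = 0.143 and 0.0822). Nop56, itself the host of Snord57, fell by 0.40 in Dicer KO (adjusted p = 5.45e-05) and stood 0.32 higher in Dgcr8 KO than in Dicer KO (adjusted p = 0.000543). Nop58 was not called (0.06 and 0.03), and Snu13 fell in Dgcr8 KO (-0.23, adjusted p = 0.00175) and had -0.09 in Dicer KO (adjusted p = 0.127), where 2 of its 3 dimmer clusters were called lower (-0.15 and -0.13). Between the mutants the 4 H/ACA core genes had adjusted p of 0.0507 to 0.984.

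Of 10 measured assembly factors, 9 fell in Dgcr8 KO and 8 in Dicer KO, beside 17.3% and 19.1% of all transcripts. Naf1, which brings newly made H/ACA particles together, fell by 0.96 and 0.75 (adjusted p = 6.59e-06 and 2.6e-05). Znhit3 (-0.87 and -0.83), Znhit6 (-0.53 and -0.46) and the ATPase gene Ruvbl2 (-0.42 and -0.38) act in C/D assembly. Nolc1, which shuttles snoRNPs in the nucleolus, fell by 0.41 and 0.65 and was 0.23 higher in Dgcr8 KO than in Dicer KO (adjusted p = 0.00567). The count in Dicer KO was 5 of 10 without Dicer KO replicate 3, WT replicate 2 or WT replicate 3, and 5 with arrays centred on their medians. Of 10 genes of intron and 3′ end processing, 6 fell and 1 rose in Dgcr8 KO, and 4 fell and 2 rose in Dicer KO. Over all transcripts 15.7% rose in Dgcr8 KO and 17.8% in Dicer KO. The counts of such short lists were not tested against the shares of all transcripts. The 6 falls in Dgcr8 KO were 2 without Dgcr8 KO replicate 1, Dgcr8 KO replicate 3 or WT replicate 3, 3 without Dicer KO replicate 1 or WT replicate 2, and 2 by the SAM-type test, and the 2 rises in Dicer KO were 1 on leaving out any 1 array but Dgcr8 KO replicate 2. The falls of Parn (-0.29) and Tent4b (-0.19) in Dgcr8 KO were each lost on leaving out any 1 array but Dgcr8 KO replicate 2 or WT replicate 1. The exosome genes Dis3 (-0.58 and -0.42) and Exosc3 (-0.80 and -0.47) fell in both, a dimmer Exosc3 cluster not being called (0.17 and 0.02). The exosome helicase gene Mtrex fell by 0.48 in Dicer KO (adjusted p = 6.09e-05). Its fall of 0.17 in Dgcr8 KO was lost on leaving out any 1 Dgcr8 KO array, Dicer KO replicate 1, or WT replicate 2 or 3 (-0.18 to -0.14). Dbr1, which opens intron lariats, fell by 0.25 in Dgcr8 KO (adjusted p = 0.0164, lost without Dgcr8 KO replicate 1 or 3 or WT replicate 3, -0.24 to -0.20), with 0.05 in Dicer KO. Drosha was not called in either.

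**Figure D5:**
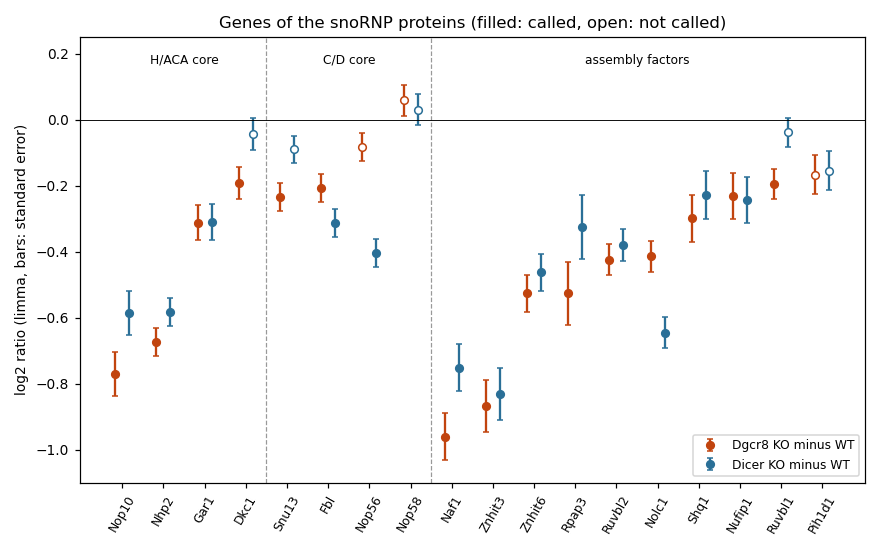
Log2 ratio ± SE (vertical axis) of the H/ACA core, C/D core and assembly factor genes in Dgcr8 KO minus WT and Dicer KO minus WT; filled points are called at an adjusted p under 0.05. Most points lie below 0 in both mutants, with Naf1 (-0.96) lowest in Dgcr8 KO and Nop58 (0.06 and 0.03) on the other side of 0.

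Of 28 listed non-coding hosts, 9 were measured by a cluster of their own, the brightest where there were several. Among the 9, only Gas5 and Snhg16 were hosts of member snoRNAs here, so the list does not describe the hosts of the members that fell. In Dicer KO 7 fell, beside 19.1% of all transcripts, and the other 2, Gas5 and Snhg11, were not called. In Dgcr8 KO 3 fell and 1 rose, beside 17.3% and 15.7% of all transcripts. Between the mutants 6 were higher in Dgcr8 KO than in Dicer KO, beside 11.2% of all transcripts, with the other 3 not called. Snhg5 was at 9.73, 9.81 and 9.81 in Dgcr8 KO, 9.29, 9.33 and 9.20 in Dicer KO, against 10.30, 10.48 and 10.46 in WT. The genotypes did not overlap, and it fell by 0.63 and 1.14 (adjusted p = 4.85e-05 and 7.97e-07). Snhg17 fell by 0.23 and 0.53, and Snhg15 had 0.18 in Dgcr8 KO, not called, and -0.34 in Dicer KO. Meg3 and Rian, maternally expressed RNAs of the imprinted Dlk1-Dio3 region of which Rian holds C/D snoRNAs, fell by 0.53 and 0.66 in Dicer KO, and Meg3 was 0.65 higher in Dgcr8 KO than in Dicer KO. Gas5, the host of Snord47, rose by 0.16 in Dgcr8 KO (adjusted p = 0.0267, lost without Dgcr8 KO replicate 1 or 2 or WT replicate 1, 0.13 to 0.16), with -0.05 in Dicer KO, by the brightest of its 4 clusters. The 4 clusters disagreed. The next in level (mean 11.83, beside 11.99) rose by 0.14 in Dgcr8 KO (adjusted p = 0.0336) and by 0.42 in Dicer KO (adjusted p = 5.05e-05), so that Dgcr8 KO minus Dicer KO was 0.20 by the brightest and -0.28 by this one (adjusted p = 0.0106 and 0.00148). The dimmest (mean 7.78) gave -0.65 for the same contrast (adjusted p = 0.0353), and the other was not called in any comparison. Gas5 was thus among the 6 hosts higher in Dgcr8 KO only by its brightest cluster, and its direction depended on the cluster. Snord47 was not called (-0.08 and 0.09).

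Signs of other cells were looked for beside these results. Of 10 fibroblast and feeder genes 1 rose in Dgcr8 KO, and 1 rose and 1 fell in Dicer KO; the riser was Vim, which differentiating and many cultured cells also make, at 12.13, 12.12 and 12.15 in Dgcr8 KO, 11.45 on all 3 Dicer KO arrays, and 9.73, 9.86 and 9.89 in WT. The log2 of the summed linear level of that list was 12.3 in Dgcr8 KO, 11.7 in Dicer KO and 10.6 in WT. Vim, at the levels just given, makes up most of that sum, which therefore says little of the other genes of the list. Among these, Col1a1, Col1a2 and Col3a1 were not called. Of 8 ES cell genes, 5 rose and 1 fell in each mutant. Over all transcripts 15.7% rose and 17.3% fell in Dgcr8 KO, and 17.8% rose and 19.1% fell in Dicer KO. The counts of these short lists were not tested against those shares. The part of the listed genes' cells in the snoRNA values was not tested either.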

How the data were processed

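The log2 values of 9 Affymetrix mouse gene arrays (3 per genotype) were used as deposited, from 1.63 to 14.99; the paper states that the authors normalized them by RMA, whereas GCRMA is the method in the submitters' notes, without a version in either source. The table holds no signal over background, so the number of arrays limits the precision. The labels speak of triplicate plating and the paper of biological replicates; where these were not separate cultures, p-values measure technical spread. Of 35557 rows, 23410 had a symbol from GEO's platform annotation; clusters of miRNAs alone (326), of chromosome Y (78) and of mitochondrial genes (4) were left out, leaving 23002.

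With limma 3.58.1 in R 4.3.3, lmFit and eBayes estimated 1 mean for each genotype from all 9 arrays (6 residual degrees of freedom). P-values of the 3 contrasts received Benjamini-Hochberg adjustment across the 23002 transcripts, with calls at 0.05. The script was tested on simulated data. Hosts were the shortest RefSeq gene (GRCm38.p6) spanning a snoRNA; the design asked for the same strand, which was not checked because the table does not pair snoRNA and host by strand. Sequences are RefSeq's on that build. Alternatives were a SAM-type test at 5% FDR, other scalings, filters and thresholds, a replicate block, and leaving out arrays. The SAM-type test adds a constant to the spread: 0.741 for Dgcr8 KO minus WT, 0.469 for Dicer KO minus WT, 0.162 between the mutants. The constants against WT exceed every snoRNA standard error printed here. There the test ranks mostly by size of ratio and can hardly call small ratios, and its counts are not comparable between contrasts. Members named were those called relative to both other genotypes, the 6 widest called per class, direction and contrast, the 3 with the highest mean per class, those sharing a host with them, and the listed genes; Snora23, Snora7a, Snora31, Snora2b, Snord73a, Snord73b, Snord47 and Snord118 were named after their values were seen. Members and lists (snoRNP core, assembly, processing, non-coding hosts, other small RNAs, cell type markers) were chosen with earlier results of these data known. Primitive endoderm, trophoblast, and mesoderm and neural markers had 0 to 2 genes called in each direction in each mutant. Each of these lists had 4 or 5 measured genes, and the counts were not tested against the shares of all transcripts.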

Additional observations from a re-analysis of the deposited data

How the results depend on the processing

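Of 3499 values for 146 named results under the alternatives, 3041 kept direction and side of the threshold, 458 kept direction but were no longer called, and 0 reversed. The cause of the shifts below was not tested.

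The 8 snoRNAs higher in Dgcr8 KO than in WT were 2 by the SAM-type test, 0 with a 1.5-fold change required, 4 at an adjusted p under 0.01 and 5 to 8 without single arrays. The 11 lower were 17 after quantile normalization, 23 with array weights, 2 at 1.5-fold and 8 to 19 without single arrays. In Dicer KO relative to WT the 1 higher was 2 without the dimmest 25% of transcripts, with median centring, quantile normalization, cyclic loess or a trended (also robust) prior, and 1 to 2 without single arrays; the 39 lower were 11 at 1.5-fold and 28 to 48 without single arrays. The 35 snoRNAs higher in Dgcr8 KO than in Dicer KO were 7 at 1.5-fold, 19 at an adjusted p under 0.01, 53 with identical values not merged and 23 to 36 without single arrays; the 0 lower were 1 by the SAM-type test, 2 with array weights and 0 to 3 without single arrays. Relative to both other genotypes, the 6 higher in Dgcr8 KO were 1 by the SAM-type test, 0 at 1.5-fold, 3 at an adjusted p under 0.01 and 3 to 5 without single arrays, the 0 lower were 1 by the SAM-type test, 2 with array weights and 0 to 3 without single arrays, and the 30 lower in the Dicer KO arrays were 5 at 1.5-fold, 14 at an adjusted p under 0.01, 47 unmerged and 17 to 32 without single arrays. With identical values not merged the median of Dgcr8 KO minus WT was 0.0049. Chosen after the data were seen, the fit lacking both WT replicate 1 and Dgcr8 KO replicate 2 gave, for Dgcr8 KO, 4 snoRNAs above and 29 below WT, 6 below Dicer KO, and 3 above and 6 below both.

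Equal replicate numbers were not shown to mark paired samples. Correlations of same-numbered arrays were -0.2 to 0.344, over 0.1 in 5 of 9 pairs. Those of arrays with unlike numbers were -0.465 to 0.317, so pairing stayed undecided. With the replicate block Dgcr8 KO had 9 snoRNAs above and 14 below WT, Dicer KO had 1 above and 43 below WT, 35 and 0 were called between the mutants, 5 were above both others in Dgcr8 KO and 32 below both in Dicer KO.

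Median centring left the snoRNA medians at -0.11 for Dgcr8 KO and -0.25 for Dicer KO relative to WT, and at 0.15 between the mutants, while the split of all transcripts between the mutants was 1787 higher and 3763 lower with it, and 2574 and 3083 as deposited. With 3 arrays per genotype, snoRNA shifts of about 0.1 on the log2 scale were not detectable.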

Other observations

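Among 15 other small structured RNAs with 1 symbol, the call against WT was higher for 3 and lower for 1 in Dgcr8 KO cells. Dicer KO cells had 3 higher and 4 lower. The shares of all 23002 transcripts were 15.7% higher and 17.3% lower for the former mutant, 17.8% and 19.1% for the latter. The counts of this short list were not tested against these shares, and no difference between the mutants is read from them. Vaultrc5, a vault RNA made by RNA polymerase III, had the widest change. It was at 8.47, 8.68 and 8.34 (log2 level) in Dgcr8 KO, 8.33, 8.26 and 8.33 in Dicer KO, against 6.59, 7.18 and 6.48 in WT, 1.75 and 1.56 above WT (adjusted p = 3.01e-05 and 5.26e-05). Scarna17, a small RNA of the Cajal body, rose in both mutants by 0.33 and 0.45. Terc, the telomerase RNA, which ends in an H/ACA domain and binds the same core proteins, rose in Dicer KO by 0.34 (adjusted p = 0.0142) and had a ratio of -0.10 in Dgcr8 KO (adjusted p = 0.496).

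U3, a C/D RNA made from its own promoters and annotated here as Rnu3, is not a member by symbol. Rnu3a was at 7.88, 7.99 and 7.91 in Dgcr8 KO, 7.67, 7.59 and 7.75 in Dicer KO, against 7.98, 8.01 and 7.97 in WT. It fell by 0.31 in Dicer KO (adjusted p = 0.0014), with -0.06 in Dgcr8 KO (adjusted p = 0.468). The clusters annotated to the Rnu3b copies fell by 0.34 in Dicer KO (adjusted p = 0.00902). Among the 5 clusters that list a snoRNA after another symbol, the one annotated to Rpl12 and Snora65 fell by 0.53 in Dicer KO (adjusted p = 0.000499) and the one annotated to Mir1291 and Snora34 by 0.58 (adjusted p = 0.0268), while the one annotated to Mir664 and Snora36b, whose end is printed in the report, had 0.13 (adjusted p = 0.199).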
